A study of Homo sapiens with 9 samples.

Results

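The genes that encode the subunits of RNA polymerases I, II and III were followed in 293T cells with and without an shRNA against DIS3. Members were all rows of the deposited gene table whose Ensembl identifier maps to a symbol of the form POLR1, POLR2 or POLR3 followed by letters, with 12 pseudogene rows left out. The rule gave 36 of 61853 listed rows, of which 35 are reported here, with 34 symbols, since POLR2J3 has 2 identifiers. It also took in POLR2J2, POLR2J3 and POLR2J4, which are copies of POLR2J, and POLR2M, which encodes a protein bound to polymerase II. POLR1HASP, an antisense pseudogene beside POLR1H, matched the letters of the rule as well and encodes no subunit. The other 29 rows are subunits of the 3 enzymes.

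RNA was sequenced after depletion of ribosomal RNA. The Scramble group held 3 libraries of 293T cells, labelled wild type, that had received a scramble shRNA. The DIS3-sh1 group held 3 libraries of the same line, labelled as a DIS3 knockdown, that had received the shRNA called DIS3-sh1. 293T is an established line of human embryonic kidney origin that expresses the SV40 large T antigen, and DIS3 is a ribonuclease of the nuclear RNA exosome. The series asks how DIS3 knockdown affects circular RNAs, and the gene values used here address the transcripts of the polymerases themselves. The design text calls the replicates biological and does not say how separate the cultures were. How and for how long the shRNA was expressed is not given in the sources used here. With 1 shRNA analysed, an effect of DIS3 loss and an effect of that shRNA on other targets cannot be told apart.

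RNA polymerase I transcribes the large ribosomal RNA precursor in the nucleolus, polymerase II transcribes messenger RNAs and most long non-coding RNAs, and polymerase III makes transfer RNAs, 5S ribosomal RNA and other short RNAs. Each enzyme has a core of related subunits in which the largest and the second largest form the active centre. A few small subunits are built into all 3 enzymes, and a further pair is shared by polymerases I and III. Around the core lie a stalk, and in polymerases I and III built-in dimers and a trimer that act in initiation and elongation as separate factors do for polymerase II.

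The libraries held 19800892 to 23532148 counts, and levels are given as CPM, the count of a gene scaled to the size of its library. With the scramble shRNA, DIS3 stood at 176, 186 and 177 CPM. With DIS3-sh1 it stood at 26.6, 27.8 and 27.9 CPM, which is 15.3% of the Scramble level. Genes known from this line were detected in every library, among them VIM at 1210 to 1310 CPM and KRT18 at 47.0 to 60.8 CPM. KRT8 measured 4.45 to 4.88 CPM in Scramble and 31.8 to 33.4 CPM in DIS3-sh1, SOX2 10.9 to 14.7 and 4.96 to 5.27 CPM, and NEFM 69.4 to 74.5 and 63.0 to 67.5 CPM. Of 5 markers of other cell types, HBB was at 0 in every library, PTPRC, ALB and CDH5 stayed at or under 0.285 CPM, and COL1A1 measured 14.2 to 15.2 CPM with Scramble and 23.4 to 27.4 CPM with DIS3-sh1. The share of counts in small structural RNAs was 4.94% to 5.14% with Scramble and 8.24% to 9.38% with DIS3-sh1, and that in nuclear coding genes 85.6% to 85.8% and 79.0% to 79.7%. Within its group, DIS3-sh1 replicate 1 was the least like the rest. The part of this shift in library make-up in the results was not tested beyond the scaling alternatives given beside them. All values are shares of a library, so fewer cells of a kind and less RNA per cell cannot be told apart.

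Most subunit transcripts were lower with DIS3-sh1. Of the 29 subunit genes of the 3 enzymes 24 fell and 5 rose, with a median log2 fold change of -0.54. Of all 35 members, all of which passed the filter on low counts, 26 fell, 6 rose and 3 were not called (edgeR quasi-likelihood test, adjusted p under 0.05 over 19591 genes). Among all genes tested, 32.6% were called lower and 34.5% higher, or 67.0% in either direction. Among nuclear coding genes at or above the mean level of the lowest member, 43.7% were called lower and 35.0% higher, or 78.7% in either direction. POLR2J4, at 4.85 CPM in Scramble, set that level. The 29 subunit genes started at 15.8 CPM with a median of 53.6 CPM, and no share was computed at their level. The median log2 fold change was -0.34 over the members, 0.02 over all genes tested and -0.06 over those coding genes. The 2 groups of libraries did not overlap for 30 members, against 69.8% of all genes tested and 80.0% of those coding genes. Without DIS3-sh1 replicate 1, 25 members fell and 6 rose, and with upper-quartile scaling 20 fell and 8 rose.

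Summed over the 35 rows, Scramble gave 2987, 2969 and 2974 CPM and DIS3-sh1 2155, 2125 and 2148 CPM, or 72.0% of the Scramble mean. The summed level of the 6 genes specific to polymerase I went from 597 ± 0.465 to 389 ± 5.87 CPM (SD, n = 3), and that of the 7 genes specific to polymerase II from 1241 ± 7.87 to 803 ± 11.4 CPM. For the 9 genes reported that are specific to polymerase III it went from 541 ± 1.7 to 467 ± 6.46 CPM. The 5 genes shared by all 3 enzymes went from 319.8 ± 0.674 to 197 ± 8.26 CPM. The remaining share was thus 65.1%, 64.7%, 86.4% and 61.5% in that order. These sums are weighted towards the most abundant genes, such as POLR2A. Per gene, the median log2 fold change was -0.67, -0.32, -0.41 and -0.69 in the same order, so polymerases II and III rank otherwise by gene.

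**Figure D1:**
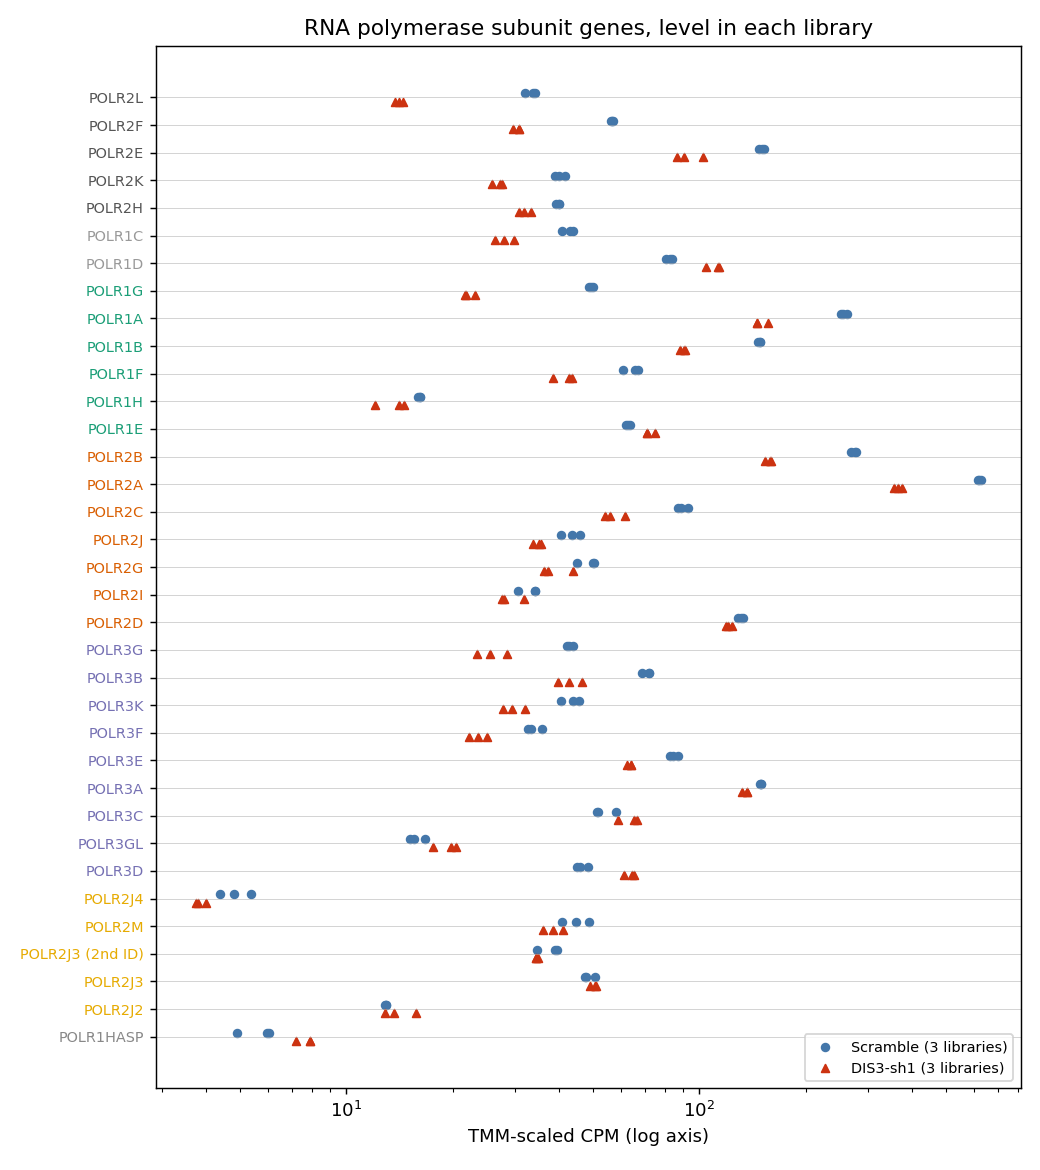
Level of each member in each library, as CPM scaled by the trimmed mean of M-values (TMM), on a log axis, with 3 Scramble libraries (circles) and 3 DIS3-sh1 libraries (triangles) per gene. Label colours give the enzyme. For 30 of 35 members the circles and triangles do not overlap. The same holds for 69.8% of all genes tested and 80.0% of nuclear coding genes at or above the level of the lowest member. POLR2A is the highest in both groups.

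Per kilobase of annotated exon, POLR2A and POLR2B, the catalytic pair of polymerase II, stood highest in Scramble at 74.3 ± 0.88 and 46.5 ± 0.80 CPM per kb. POLR2J, POLR2E and POLR2L followed at 32.0 ± 2.1, 30.8 ± 0.52 and 29.2 ± 0.94 CPM per kb, and the first of these did not differ from the second beyond its spread. The catalytic subunits of polymerases I and III lay lower, with POLR1B at 23.4, POLR1A at 19.0, POLR3A at 16.7 and POLR3B at 14.6 CPM per kb. The lowest subunit gene was POLR1H at 4.39 CPM per kb, and POLR2J4 and POLR1HASP measured 0.747 and 0.321. With DIS3-sh1 POLR2A kept the first place at 43.7 CPM per kb, while POLR2L moved from 29.2 to 12.3. These lengths join the exons of all annotated transcripts, so a gene with long rare exons, such as POLR1D, reads low.

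All 5 subunits built into every polymerase fell, where 43.7% of coding genes at or above the level of the lowest member were called lower. POLR2L, a small zinc-binding subunit that helps hold the core together, had the largest decrease of any member. It measured 33.7, 34.2 and 32.1 CPM in Scramble and 14.5, 13.7 and 14.1 CPM in DIS3-sh1, with a wide gap between the groups, a log2 fold change of -1.24 ± 0.07 (SE, adjusted p = 2.78e-16). POLR2L shares 22.5% of its exon bases with CD151 on the opposite strand, which measured 53.1 ± 1.70 CPM in Scramble and 52.1 ± 4.02 CPM under DIS3-sh1, not called (adjusted p = 0.701). POLR2F, a subunit at the base of the clamp, measured 56.6, 57.0 and 56.0 CPM against 30.9, 30.8 and 29.6 CPM, a log2 fold change of -0.90 ± 0.05. POLR2E, the subunit of the downstream DNA jaw, went from 149.9 ± 2.54 to 93.2 ± 8.31 CPM (-0.69 ± 0.04), and DIS3-sh1 replicate 1 was the highest of its group at 102.5 CPM. POLR2K, another zinc-binding subunit, fell by 0.58 on the log2 scale. POLR2H had the smallest change of the 5, from 39.8 ± 0.506 to 32.1 ± 1.29 CPM (-0.31 ± 0.06, adjusted p = 1.67e-05).

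The largest and second largest subunits, which form the active centre, fell in all 3 enzymes, by unequal amounts. Among coding genes at or above the level of the lowest member, 43.7% were called lower. POLR2A, which carries the C-terminal heptad repeats that processing factors bind, measured 629, 614 and 621 CPM in Scramble and 374, 357 and 364 CPM in DIS3-sh1. POLR2B measured 276, 278 and 269 CPM against 153, 158 and 160 CPM. In both cases every DIS3-sh1 library lay far under every Scramble library, and the log2 fold changes were -0.77 ± 0.03 and -0.80 ± 0.03. POLR1A fell by 0.78 and POLR1B by 0.71 on the log2 scale, to 149 ± 6.46 and 90.1 ± 1.54 CPM. Of the polymerase III pair, POLR3B measured 68.9, 72.0 and 72.2 CPM in Scramble and 39.8, 46.4 and 42.7 CPM in DIS3-sh1, a log2 fold change of -0.73 ± 0.05. POLR3A, mutated in leukodystrophies with low myelin, moved little, from 149.1, 148.9 and 149.3 CPM to 136, 132 and 136 CPM (-0.15 ± 0.03, adjusted p = 0.000274). Under upper-quartile scaling POLR3A was not called (adjusted p = 0.0806).

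The log2 ratio of POLR3A to POLR3B counts within a library was 1.11, 1.05 and 1.05 in Scramble and 1.78, 1.5 and 1.67 in DIS3-sh1. The matching ratios for POLR1A over POLR1B (0.77 to 0.84 and 0.69 to 0.78) and POLR2A over POLR2B (1.14 to 1.21 and 1.17 to 1.29) overlapped between the groups. Such ratios do not depend on library scaling. With 3 libraries against 3 an exact permutation test cannot go under p = 0.1, so the ratios are given as values with no test, and the 10 pairs were chosen from known structures after the values were seen. Among coding genes at or above the level of the lowest member, 43.7% were called lower and 35.0% higher. How often 2 unrelated genes move apart or in opposite directions was not examined.

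Among the other subunits of polymerase I, those of the built-in dimer went opposite ways. POLR1G, also known as CD3EAP, measured 48.6, 49.3 and 49.9 CPM in Scramble and 21.7, 21.9 and 23.1 CPM in DIS3-sh1, with -1.15 ± 0.06 as the log2 fold change (adjusted p = 2.03e-17). Its partner POLR1E rose from 62.6, 63.5 and 61.9 CPM to 71.0, 74.9 and 70.8 CPM, a log2 fold change of 0.21 ± 0.04 (adjusted p = 0.000144). The ratio of POLR1E to POLR1G counts went from 1.27 to 3.25. POLR1G shares 43.5% of its exon bases with ERCC1, a repair nuclease gene on the opposite strand, which rose by a log2 fold change of 0.17 ± 0.06 (adjusted p = 0.0121). Whether strand was used in counting is not given in the sources used here. POLR1F, the stalk subunit that contacts the initiation factor RRN3, went from 64.4 ± 3.34 to 41.6 ± 2.66 CPM (-0.63). POLR1H, a small subunit needed for RNA cleavage, measured 16.0, 16.2 and 16.2 CPM against 14.1, 14.5 and 12.1 CPM (-0.25 ± 0.09, adjusted p = 0.012). Its call was lost without DIS3-sh1 replicate 3 (adjusted p = 0.112), with upper-quartile scaling (0.0849) and with DESeq2 (0.0514). POLR1HASP, which shares 24.5% of the exon bases of POLR1H on the opposite strand, rose from 5.63 ± 0.633 to 7.66 ± 0.390 CPM (0.44 ± 0.12, adjusted p = 0.00199).

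POLR1C and POLR1D, the pair that nucleates assembly of polymerases I and III and is mutated in Treacher Collins syndrome, also parted. POLR1C measured 43.7, 42.9 and 40.8 CPM in Scramble and 27.9, 26.3 and 29.8 CPM in DIS3-sh1 (-0.60 ± 0.06, adjusted p = 2.48e-10). POLR1D rose from 82.6, 80.2 and 83.6 CPM to 104, 114 and 113 CPM (0.43 ± 0.04, adjusted p = 9.57e-11). All 3 DIS3-sh1 libraries were below the Scramble range for POLR1C and above it for POLR1D. The ratio of POLR1C to POLR1D counts went from 0.52 to 0.25. In polymerase II the matching pair is POLR2C and POLR2J, which fell by 0.64 and 0.32 on the log2 scale.

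**Figure D2:**
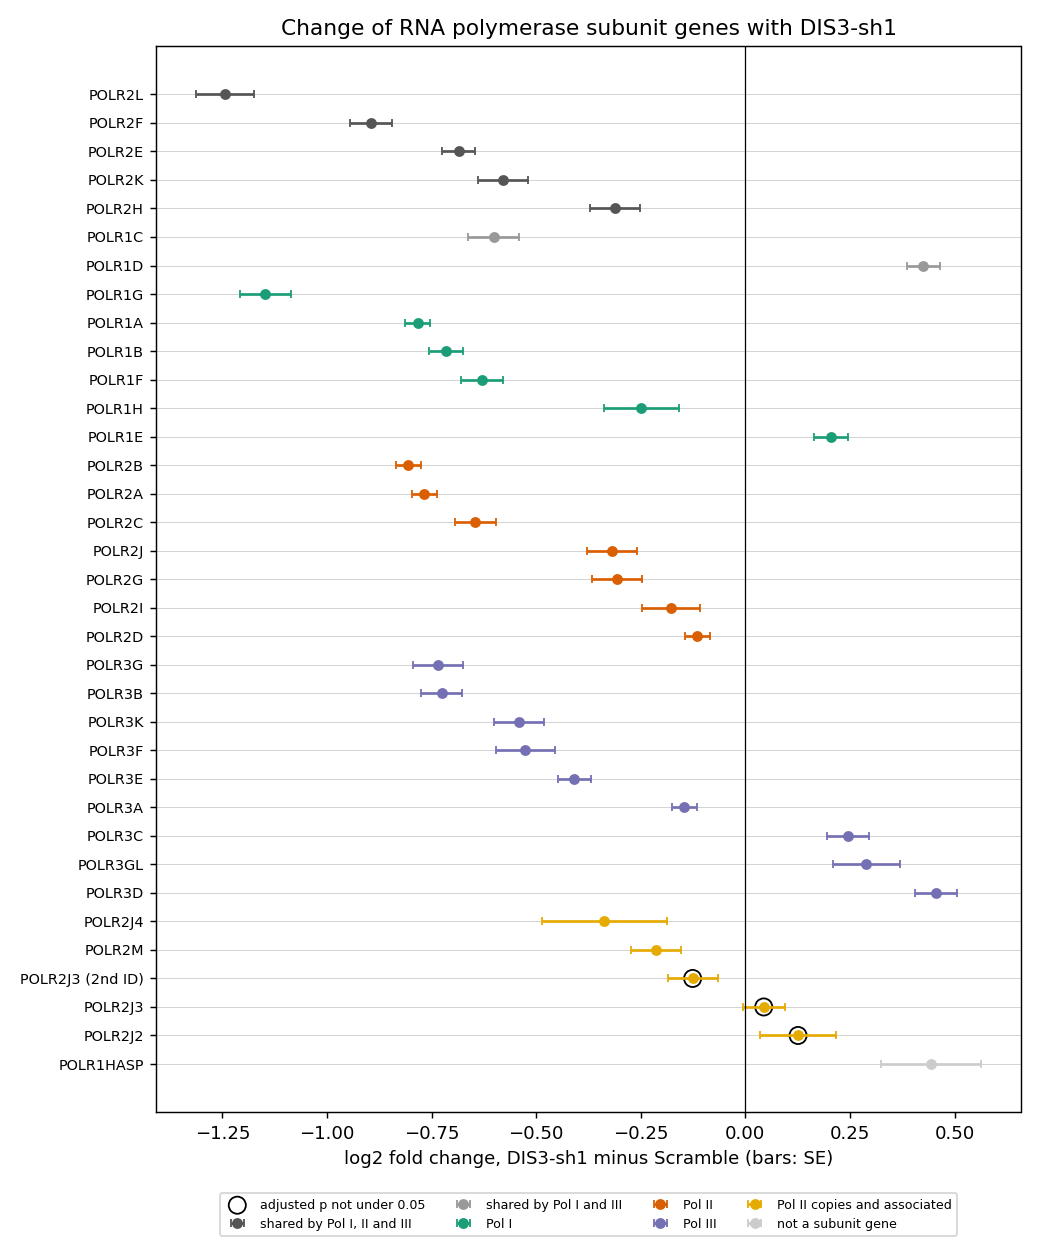
Log2 fold change of each member, DIS3-sh1 minus Scramble, from the edgeR fit of 3 against 3 libraries, with bars for the SE and colours for the enzyme. Rings mark the 3 members with an adjusted p not under 0.05. The values run from -1.24 for POLR2L to 0.46 for POLR3D.

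Among the smaller subunits of polymerase II the fold changes ran from -0.64 for POLR2C to -0.12 for POLR2D. POLR2C went from 86.7, 93.1 and 88.5 CPM to 55.9, 53.9 and 61.7 CPM (-0.64 ± 0.05, adjusted p = 2.67e-13). Of the stalk pair, POLR2D, the more abundant of the 2 transcripts, moved little, from 131.0 ± 2.13 to 121.0 ± 2.43 CPM (-0.12 ± 0.03, adjusted p = 0.00452). POLR2G fell from 48.3 ± 2.95 to 39.1 ± 4.12 CPM (-0.31 ± 0.06). With upper-quartile scaling POLR2D was at -0.03 and not called (adjusted p = 0.382). POLR2I, a zinc-ribbon subunit linked to transcript fidelity, measured 30.6, 34.1 and 34.3 CPM against 31.9, 27.9 and 27.6 CPM, so the groups overlapped (-0.18 ± 0.07, adjusted p = 0.0203). That call was lost without any 1 of Scramble replicate 2 (adjusted p = 0.075), Scramble replicate 3 (0.0784), DIS3-sh1 replicate 2 (0.0883) or DIS3-sh1 replicate 3 (0.109), with upper-quartile scaling (0.203) and with DESeq2 (0.0546). POLR2I shares 32.9% of its exon bases with TBCB on the opposite strand, which rose by a log2 fold change of 0.44 ± 0.05. POLR2M, a polymerase II binder that competes with initiation factors, measured 40.7, 44.7 and 48.5 CPM against 36.0, 41.0 and 38.5 CPM, with overlap between the groups (-0.21 ± 0.06, adjusted p = 0.00319). Under upper-quartile scaling it was not called (0.0581), and 21.1% of its exon bases belong to the read-through gene GCOM1 as well.

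POLR2J, POLR2J2 and POLR2J3 lie within a stretch of chromosome 7 and are so alike that short reads cannot always be placed. The second coding exon, read from GENCODE 29 transcripts on GRCh38, is shown to make this visible. It lies at chr7:102476181-102476270 for POLR2J, chr7:102569835-102569924 for POLR2J3, whose 2 identifiers share it, and chr7:102668915-102669004 for POLR2J2, each on the minus strand. Capitals mark bases that differ from POLR2J, counted from 1 at the 5′ end of the exon.
POLR2J: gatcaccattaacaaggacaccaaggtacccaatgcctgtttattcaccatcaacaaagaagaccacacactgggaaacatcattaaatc
POLR2J3: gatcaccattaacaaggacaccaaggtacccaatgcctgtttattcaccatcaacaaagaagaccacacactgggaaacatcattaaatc
POLR2J2: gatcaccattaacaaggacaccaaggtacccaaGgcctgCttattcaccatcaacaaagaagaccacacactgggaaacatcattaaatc
POLR2J2 carries T34G and T40C here, an identity of 97.8% over 90 bases, and POLR2J3 has 0 differences. Over the 175 bases of the third coding exon, POLR2J2 and POLR2J3 each differ from POLR2J by T172C alone, an identity of 99.4%.

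POLR2J, which encodes the assembly partner of POLR2C, measured 43.6, 40.5 and 46.0 CPM in Scramble and 35.5, 33.7 and 35.0 CPM in DIS3-sh1 (-0.32 ± 0.06, adjusted p = 1.45e-05). POLR2J3 measured 48.6 ± 1.67 and 50.1 ± 1.09 CPM (adjusted p = 0.448), and its second identifier, ENSG00000285437, 37.7 ± 2.73 and 34.6 ± 0.296 CPM (adjusted p = 0.0635). POLR2J2 measured 12.9 ± 0.0784 and 14.1 ± 1.47 CPM (adjusted p = 0.219). The groups overlapped for all 3 of these rows, and whether their changes differ from that of POLR2J was not tested. With the 4 rows summed into 1 feature, the family measured 146.5, 136 and 145 CPM against 137, 129.8 and 133.5 CPM, and the log2 fold change was -0.09 ± 0.04 (adjusted p = 0.0214). POLR2J is only 1 of these 4 rows, so a change in it alone moves the sum less. The 2 POLR2J3 rows share exons, 49.3% of the bases of the first and 21.9% of ENSG00000285437. How reads that match several copies were counted is not given in the sources used here, so the fall of POLR2J is uncertain in size. With upper-quartile scaling POLR2J3 and POLR2J2 were called higher (adjusted p = 0.0293 and 0.0445). The second POLR2J3 identifier was called lower with RLE scaling (0.0412) and without Scramble replicate 2 (0.0104). POLR2J4, a distant copy that is annotated as non-coding, measured 5.38, 4.38 and 4.79 CPM against 3.74, 3.80 and 4.01 CPM (-0.34 ± 0.15, adjusted p = 0.0414), a call lost in 10 of 15 alternatives.

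**Figure D3:**
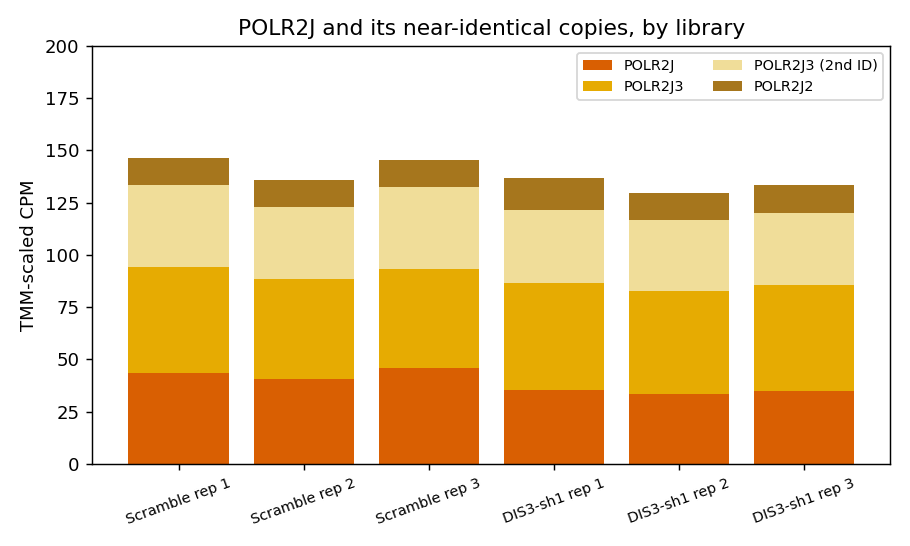
Level of POLR2J, the 2 identifiers of POLR2J3 and POLR2J2 in each of 6 libraries, stacked, as TMM-scaled CPM on an axis that starts at 0. The stack stands at 136 to 146.5 CPM in Scramble and 129.8 to 137 CPM in DIS3-sh1, and the lowest segment, POLR2J, is shorter in every DIS3-sh1 library.

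Of the 9 reported members specific to polymerase III, 6 fell and 3 rose. Among coding genes at or above the level of the lowest member, 43.7% were lower and 35.0% higher. POLR3K, a subunit for RNA cleavage and termination, fell from 43.3 ± 2.56 to 29.7 ± 2.18 CPM (-0.54 ± 0.06).

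The POLR3D and POLR3E dimer, which acts in initiation and termination, went opposite ways. POLR3D, the member with the largest rise, measured 48.4, 45.9 and 44.9 CPM in Scramble and 65.5, 61.3 and 64.4 CPM in DIS3-sh1 (0.46 ± 0.05, adjusted p = 1.18e-09). POLR3E fell from 82.4, 84.0 and 86.9 CPM to 64.0, 64.2 and 62.5 CPM (-0.41 ± 0.04, adjusted p = 5.66e-10). The ratio of POLR3D to POLR3E counts moved from 0.55 to 1.00.

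The trimer that opens promoter DNA is made of POLR3C, POLR3F and either POLR3G or POLR3GL. POLR3G is the form known from stem cells and tumours, and POLR3GL the form of most differentiated tissues. POLR3C rose from 57.9, 51.5 and 51.4 CPM to 58.8, 65.4 and 66.6 CPM (0.25 ± 0.05, adjusted p = 0.000178), with Scramble replicate 1 and DIS3-sh1 replicate 1 close together. POLR3F fell from 33.9 ± 1.65 to 23.6 ± 1.45 CPM (-0.53 ± 0.07). POLR3G measured 42.8, 43.9 and 42.2 CPM in Scramble and 23.4, 25.6 and 28.4 CPM in DIS3-sh1 (-0.74 ± 0.06, adjusted p = 1.01e-11). POLR3GL rose from 15.5, 15.2 and 16.7 CPM to 19.8, 17.6 and 20.5 CPM (0.29 ± 0.08, adjusted p = 0.00227). The ratio of POLR3G to POLR3GL counts went from 2.72 to 1.34, and its log2 value was 1.34 to 1.54 in Scramble and 0.24 to 0.54 in DIS3-sh1. Per kilobase of exon, POLR3G stood at 10.7 CPM and POLR3GL at 8.78 CPM in Scramble, and at 6.42 and 10.7 CPM in DIS3-sh1, so the order of the means turned. Of POLR3GL, 21.2% of the exon bases belong also to the gene AC243547.3, which rose by a log2 fold change of 0.35 ± 0.12.

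**Figure D4:**
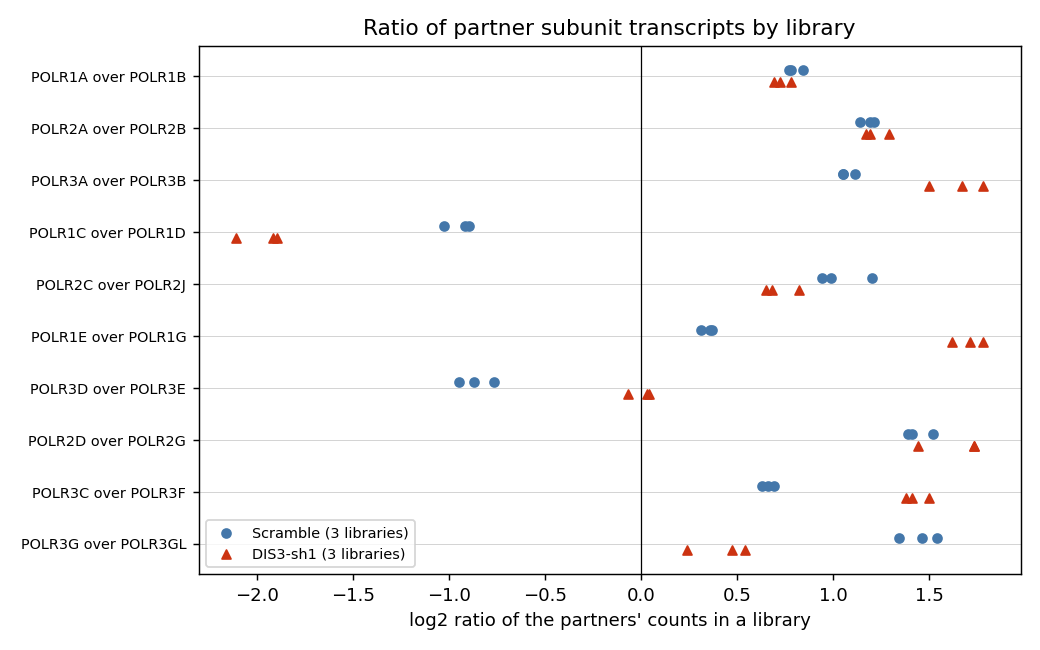
Log2 ratio of the counts of 2 partner subunits within each library, for 10 pairs, with 3 Scramble libraries (circles) and 3 DIS3-sh1 libraries (triangles). The mean ratio shifted by 1.35 for POLR1E over POLR1G, -1.03 for POLR1C over POLR1D and -1.02 for POLR3G over POLR3GL, while POLR1A over POLR1B (-0.07), POLR2A over POLR2B (0.04) and POLR2D over POLR2G (0.19) overlapped between the groups.

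Sequence just upstream of the start site is given for 2 genes that fell, POLR2A and POLR2L, and 2 that rose, POLR1D and POLR3GL, since subunits of 1 enzyme moved both ways. The stretches run from base -170 to base -21 from the RefSeq start on GRCh38.p14, read 5′ to 3′ on the strand of the gene. They lie at chr17:7484196-7484345 (plus), chr11:842550-842699 (minus), chr13:27620573-27620722 (plus) and chr1:145964520-145964669 (plus) in the order of the names, outside the annotated exons of these genes. Capitals mark matches to the motifs listed after them.
POLR2A: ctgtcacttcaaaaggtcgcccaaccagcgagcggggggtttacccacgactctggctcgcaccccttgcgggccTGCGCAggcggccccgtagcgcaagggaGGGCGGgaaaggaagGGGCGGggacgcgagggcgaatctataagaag
POLR2L: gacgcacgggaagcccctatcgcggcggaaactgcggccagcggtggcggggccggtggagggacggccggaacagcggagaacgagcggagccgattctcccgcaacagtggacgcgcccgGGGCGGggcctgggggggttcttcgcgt
POLR1D: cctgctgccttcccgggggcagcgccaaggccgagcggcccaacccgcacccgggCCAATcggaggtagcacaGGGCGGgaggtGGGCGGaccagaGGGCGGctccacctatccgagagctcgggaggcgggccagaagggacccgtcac
POLR3GL: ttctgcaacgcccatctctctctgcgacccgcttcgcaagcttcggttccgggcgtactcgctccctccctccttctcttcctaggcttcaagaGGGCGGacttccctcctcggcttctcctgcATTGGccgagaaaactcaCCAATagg
The motifs were searched on both strands of the 250 bases before the RefSeq start. The RefSeq promoter table holds 24 of the 34 member symbols. For several of these, the bases before that start include annotated exons of the gene itself. From -170 to -21, such exons covered 150 bases for POLR1A, POLR1G, POLR1H, POLR2C and POLR3F. A match there need not lie upstream of all transcripts. The GC box, GGGCGG, was present in 16 of 24 (66.7%), and in 56.0% of 15843 coding genes. An ETS core, CCGGAAG, was present in 7 (29.2%, against 11.8%), the NRF1 letters TGCGCA in 4 (16.7%, against 9.1%) and the E-box CACGTG in 3 (12.5%, against 7.8%). CCAAT was found in 5 members (20.8%, against 34.5%), of which POLR1D and POLR3GL rose and POLR1H, POLR3B and POLR3K fell. The TATA box letters TATAAA were found before POLR2M alone (4.2%, against 9.2%) and the ATF element TGACGTCA before POLR1H alone (4.2%, against 2.3%). The letters AAGATGG of YY1, a heat shock element and the ATF4 and CEBP composite TGATGCAAT had no match in these windows, and their shares among coding genes were 3.3%, 0.3% and 0.2%. The motifs do not overlap one another in the stretches shown, and with 24 genes each share rests on few matches.

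Factors that work with the polymerases were described in 6 lists, and their counts stand beside 43.7% lower and 35.0% higher among coding genes at or above the level of the lowest member. Of 8 polymerase I factors, 6 fell and 0 rose, and the list had a median log2 fold change of -0.36. RRN3, which links the POLR1F stalk to ribosomal DNA promoters, fell from 25.9 ± 0.836 to 13.9 ± 0.389 CPM (-0.90 ± 0.07), while TAF1C (-0.64), TTF1 (-0.58), a termination factor, and TAF1D (-0.43) also fell. Of 17 polymerase III factors, 9 fell and 3 rose, with a median of -0.13. Those that fell include CRCP (-0.60 ± 0.05). It is itself a polymerase III subunit, but its symbol does not match the rule for members. The 4 with the smallest p were all subunits of TFIIIC, which binds the internal promoters of transfer RNA genes: GTF3C6 (-0.81), GTF3C4 (-0.66), GTF3C2 (-0.51) and GTF3C1 (-0.39). GTF3C5 of the same complex fell less (-0.18). The 3 that rose were GTF3C3 (0.16), also a TFIIIC subunit, SNAPC3 (0.15) and SNAPC2 (0.31), and the groups overlapped for SNAPC2. With DESeq2 SNAPC3 and SNAPC2 were not called (adjusted p = 0.0641 and 0.169). SNAPC3 was not called without DIS3-sh1 replicate 2 (0.0723) or Scramble replicate 3 (0.0688), nor SNAPC2 without DIS3-sh1 replicate 1 (0.0505) or 3 (0.172) or Scramble replicate 1 (0.0783) or 2 (0.109).

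Of 18 general factors of polymerase II, 12 fell and 1 rose, with a median of -0.23. GTF2H2 (-0.71) and CCNH (-0.46) of TFIIH, GTF2A2 of TFIIA (-0.61) and GTF2E1 of TFIIE (-0.59) fell, and the helicase gene ERCC2 of TFIIH was the one that rose (0.39 ± 0.05). Of 25 pausing and elongation factors, 20 fell and 3 rose, with a median of -0.28. HEXIM1, the inhibitor of the kinase P-TEFb within the 7SK particle, fell from 45.1 ± 2.38 to 17.9 ± 0.801 CPM (-1.33 ± 0.06, adjusted p = 6.75e-18), and ELOA (-0.58) and CTR9 of the PAF complex (-0.52) fell too. TCEA2, a TFIIS gene that rescues arrested polymerase II, rose from 11.3 ± 0.786 to 25.2 ± 1.91 CPM (1.16 ± 0.08). TCEA1 (0.45) and the pausing factor gene NELFA (0.48) rose too. NELFCD (-0.28) and NELFE (-0.14), of the same factor as NELFA, fell, and NELFB was not called.

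Of 15 genes for kinases, phosphatases and binders of the POLR2A C-terminal repeats, 10 fell and 4 rose, with a median of -0.23. CDK12 fell from 315 ± 2.41 to 161 ± 2.22 CPM (-0.97 ± 0.03, adjusted p = 2.40e-23) and its relative CDK13 by 0.83 on the log2 scale. The phosphatase gene SSU72 (-0.76) and CCNC, the cyclin of the Mediator kinase (-0.62), fell, and CTDSPL (0.30), CTDSP1 (0.19), CTDSP2 (0.17) and RPRD2 (0.09) rose. The call of RPRD2 was lost without DIS3-sh1 replicate 3 (adjusted p = 0.0913), Scramble replicate 1 (0.0626) or Scramble replicate 3 (0.215), with no filter on low counts (0.0606), with RLE scaling (0.0547) and with DESeq2 (0.152). Of 20 assembly and import factors of the polymerases, 16 fell and 0 rose, with a median of -0.32. They include both ATPases of the R2TP chaperone complex, RUVBL1 (-0.72) and RUVBL2 (-0.48), its adaptor RPAP3 (-0.50) and PDRG1 (-0.77). PIH1D1, also of R2TP, measured 34.2 ± 1.82 and 36.0 ± 2.05 CPM and was not called (adjusted p = 0.27). RPAP2 stands in both of these lists. The genes named as rising in these lists other than TCEA2, and the genes that overlap members were chosen after their values were seen. So were CRCP, GTF3C5, NELFB, NELFCD, NELFE and PIH1D1.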

How the data were processed

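Ribosomal-RNA-depleted libraries of 293T cells were sequenced on an Illumina instrument, per the labels' protocols. The authors deposited expected counts per gene, not scaled and with fractions; the submitters' processing notes name hg38, featureCounts 1.5.1, HISAT2 2.1.0, Bowtie2 2.3.5 and SAMtools, in no order. Their roles, the annotation and the use of strand and of shared reads are not given in the sources used here. Only 34 of 210 member values are whole numbers. Column names matched 6 samples; 3 other columns of per-sample values matched no label and were not used, so DIS3-sh2 is not analysed here and its planned comparisons were not computed.

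Symbols came from a table of Ensembl identifiers (61803 of 61853 matched), and positions and exon lengths from GENCODE 29 (GRCh38). Promoters came from RefSeq (GRCh38.p14). Rounded counts entered edgeR 4.0.16 under R 4.3.3 (filter on low counts by group, TMM factors, robust quasi-likelihood F-test, two-sided, group as the only term) with Benjamini-Hochberg adjustment over 19591 genes, and every adjusted p is from this test unless another is named. An SE is the absolute log2 fold change over the square root of F. Levels are TMM-scaled CPM, mean ± SD, n = 3. The p-values set the difference between the groups against the spread of libraries within a group. How far that spread covers separate cultures is not known. Alternatives were other scalings, no filter, DESeq2 1.42.0, limma-voom (limma 3.58.1), unrounded values, a replicate block, the POLR2J rows summed and each library left out. The fit was also tested on simulated data with 50 altered genes at each fold change from 1.25 to 4. Of these, 90% to 100% were called, and 7.21% of all calls fell on unaltered genes. Far fewer genes were altered there than were called here, so the simulation does not cover such broad change. Named genes were all members but 1, which is not reported here, DIS3 and up to 4 called genes with the smallest p in each of 6 companion lists. The members, lists and motifs were chosen with earlier results of these data known.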

Additional observations from a re-analysis of the deposited data

How the results depend on the processing

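Directions were kept under all alternatives run for the members reported. From the 6 lists, they were kept for the genes named for the smallest p and for those called higher. Calls were lost in 36 and gained in 4 of 1031 gene and setting combinations, all in POLR1H, POLR2D, POLR2I, POLR2J2, POLR2J3, POLR2J4, POLR2M, POLR3A, RPRD2, SNAPC2 and SNAPC3. The count of members lower ranged from 20 (upper-quartile scaling) to 27 (RLE scaling) and of members higher from 6 to 8. With upper-quartile scaling 1 polymerase I factor, 3 general factors of polymerase II and 2 assembly factors were called higher. General factors called higher numbered 2 with scaling by nuclear coding genes alone and 1 to 2 with a library left out, and DESeq2 called 1 polymerase III factor higher; the causes were not tested. Same-numbered libraries of the groups did not deviate together (correlations 0.04, 0.01 and 0.01). This shows no pairing by number, but with 3 libraries per group it cannot exclude one. With the replicate block 26 members were lower and 6 higher, and the block changed no call of a member. POLR1H, POLR1HASP and POLR2J4 rest on 76 to 371 counts in a library, which limits their precision.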

Other observations

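Across the 35 members, which share the same 6 libraries, the log2 fold change had a Spearman correlation of -0.03 with annotated exon length and of -0.34 with the Scramble level in CPM, given as descriptions. The Scramble level is also the base of the fold change, and this shared term was not allowed for. The 25 members with under 10% of their exon bases in another gene had 20 lower and 5 higher, with a median of -0.54. The 10 with more had 6 lower and 1 higher, with a median of -0.20. Among coding genes at or above the level of the lowest member, 43.7% were lower and 35.0% higher. Those 10 members include the 5 rows of the POLR2J copies and POLR2M, whose median was -0.13. An effect of overlap was not tested.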
